A study of Mus musculus with 4 samples.

Results

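The lung primordium and the intestine primordium of ICR mouse embryos, an outbred laboratory strain, were compared at embryonic day E11.5. The study put total RNA from 4 organs of this age (lung, esophagus, stomach and intestine) on 1-colour arrays, 1 array per organ, and the lung and intestine arrays are 2 of these 4. All 4 samples carry the same strain and age, and no genotype or treatment beyond mating and dissection is given for any of them. The organ was taken from the tissue label; the extraction text is the same for every sample and names only the stomach, whose own label has an unusual spelling. How many embryos were pooled for a sample is not given in the sources used here. A gene's level is the log2 signal of its brightest probe minus the 75th percentile of its array, so that a level of 0 lies at that percentile. Genes were counted as members when at least 1 of the 2 arrays measured them well above background, when the 2 levels were at least 2-fold apart, and when the bright probes of a gene agreed in sign. Of 17016 named genes on the array, 14311 were bright on lung or intestine and 10427 could be compared. Of these, 1119 were at least 2-fold higher in lung (10.7% of the genes compared) and 823 were at least 2-fold higher in intestine (7.89%).

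The lung grows from the ventral wall of the anterior foregut, where the transcription factor Nkx2-1 marks the respiratory epithelium and Wnt2 from the surrounding mesenchyme, through beta-catenin, helps to specify it. The bud then branches as Fgf10 from the distal mesenchyme acts on the epithelium. The intestine grows from the midgut and hindgut, where Cdx2 maintains intestinal identity in the epithelium, and Hox genes expressed along the body axis mark the position of each segment in the mesenchyme. At this age both organs are simple tubes of epithelium in mesenchyme, still without villi or alveoli.

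Each organ was measured once, so that no value below has a replicate, no test between the organs was possible, and no p-value is given. The number of arrays limits the precision. The arrays shared 1 slide and 1 scan. The lung array was dim: 39.0% of its 43379 spots were well above background, against 67.9% to 74.0% on the other arrays, and its 75th percentile of signal was 32.0 against 989 in intestine, 30.9-fold lower. The spike-in control RNA, which is added to each sample in labelling, was dimmer in lung by a similar factor, 34.4-fold. The lowest level that was well above background was therefore −2.39 in lung and −6.92 in intestine. A gene that was bright in intestine and dim in lung received a lower bound against that lung limit. Another 3884 genes were bright in intestine only, at levels below the lung limit, and received no fold. The spread over copies of a probe within an array had a median SD of 0.11 (log2) in lung over 128 probes and 0.07 in intestine over 206 probes. Different probes of a gene disagreed by more: over 2506 genes the differences between a pair of probes had an SD of 0.90 (log2). It is the most complete error these arrays hold, and it leaves out differences of dissection and labelling.

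The labels matched the defining markers of each organ. Nkx2-1 was at 2.47 in lung and at −1.10 in esophagus, and was not well above background in stomach and intestine. Cdx2 was at 1.90 in intestine and −4.31 in stomach, and was not well above background in lung and esophagus. Barx1, a stomach mesenchyme factor, was at 4.50 in stomach and 0.92 in esophagus, and was below the lung limit on both arrays compared here. Sox2, a foregut epithelial factor, was at 1.09 in esophagus, 0.63 in stomach, −1.77 in lung and −2.56 in intestine, a lung to intestine difference of 1.72-fold that is under the threshold.

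Of the 1119 genes higher in lung, 1101 were measured on both arrays and 18 rest on a bound because intestine was dim. Of the 823 higher in intestine, 511 were measured on both arrays and 312 rest on a bound because lung was dim. A bounded gene can enter in 1 direction only, so that these 312 genes had to come out higher in intestine once they were counted. At a 4-fold threshold, 246 genes were higher in lung (2.36% of genes compared) and 168 were higher in intestine (1.61%). The rule that bright probes must agree in sign removed 173 genes from the lung side and 41 from the intestine side. A probe dim in lung could carry only a sign toward intestine. Gata6, with measured log2 differences of 2.07 and 1.21, was removed by a probe dim in lung with a bound of −0.37. The genes removed were not divided by kind of probe. The median difference over all genes compared was 0.15 (log2, lung minus intestine). Over the genes measured on both arrays it was 0.23. How the calls divided between the organs followed the scaling: with centring on the spike-in controls 1700 genes were higher in lung and 590 in intestine, and with the 75th percentile taken over probes bright on both arrays the counts were 751 and 1175. In none of the 15 other settings tried was a gene called higher in the opposite organ. Normexp background correction, run with an offset of 50 added to every signal, made many differences smaller. The offset lies above the lung array's 75th percentile of processed signal, 32.0, and far below that of intestine, 989. How much of the changes under normexp comes from the offset was not tested. Under normexp 935 genes were higher in lung and 2070 in intestine. Of 52 genes named below for their size or for agreeing probes, 51 were still at least 2-fold apart the same way and 1 had no fold, but 39 had folds more than 1.5 times smaller. Of all 206 named genes that were called, 135 were still at least 2-fold apart the same way under normexp and 17 had no fold.

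**Figure D1:**
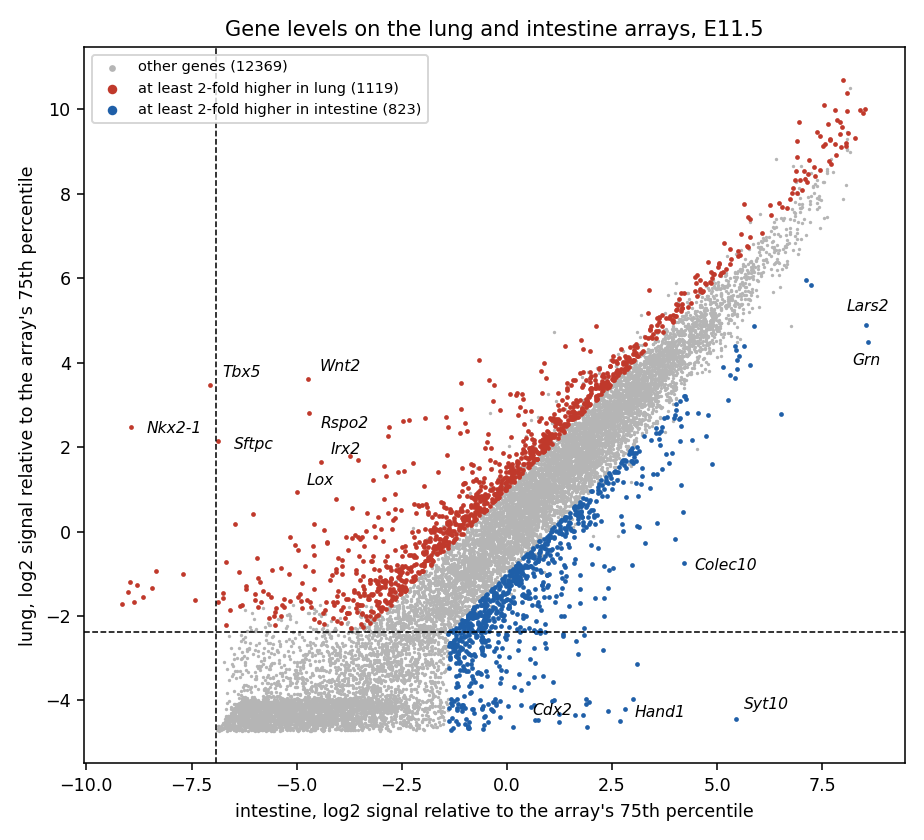
Level of each of the 14311 genes bright on lung or intestine, in intestine (x) and lung (y), on the log2 scale, with the 75th percentile of its array at 0. Red and blue points are the 1119 and 823 genes at least 2-fold higher in lung and in intestine, and the dashed lines mark the lowest level well above background on each array, −2.39 in lung and −6.92 in intestine. Many genes lie below the lung line, where the lung array gives only an upper limit.

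Among genes measured on both arrays, the Wnt pathway led the lung side. Wnt2, the mesenchymal ligand of lung specification, was at 3.61 in lung and 1.76 in esophagus, against −2.31 in stomach and −4.73 in intestine, 324-fold higher in lung than in intestine. Rspo2, a secreted protein that strengthens Wnt signals, was at 2.82, 0.00, −2.40 and −4.71 in the same order, a 184-fold difference. Both genes fell step by step over the 4 organs in this order. Under normexp the log2 differences of Wnt2 and Rspo2 between lung and intestine were 5.68 and 4.85, against 8.34 and 7.52. Sp5, a transcription factor that Wnt signals induce, was at 1.80 in lung and −0.60 in esophagus, against −0.45 in stomach and −3.73 in intestine, a 46.1-fold difference. Irx2, an Iroquois homeobox factor, was at 1.65 in lung and 0.65 in esophagus, against −2.23 in stomach and −4.42 in intestine. Its 2 probes put it 67.4-fold and 23.1-fold higher in lung. Lox, an enzyme that cross-links collagen and elastin, was at 0.93, −0.11, −3.38 and −4.99, a 60.5-fold difference. Tnfsf13b, a cytokine of the tumor necrosis factor family, was 100-fold higher in lung, at 0.18 against −6.47.

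The group also held Olfr815, Neto1, Snai3, Iigp1 and Adh1, between 34.3-fold and 87.3-fold higher in lung. Adh1, which oxidises retinol, was at 2.62 in lung and 0.74 in esophagus, against −0.42 in stomach and −2.48 in intestine, and its 2 probes gave 34.3-fold and 16-fold. Olfr815, an olfactory receptor, and Snai3, a zinc finger factor, had another pattern: they were at 0.42 and −0.62 in lung and were not well above background in esophagus or stomach. Each of them was measured by 1 probe.

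Where intestine was dim, the largest bounds were those of known lung factors. Tbx5, a T-box factor of the lung and heart mesenchyme, was at 3.48 in lung, with 2.46 in esophagus and −1.49 in stomach, and was not well above background in intestine, which puts lung at least 1355-fold higher. Nkx2-1 was at least 672-fold higher. Sftpc, which encodes a surfactant protein of the distal lung epithelium, was at 2.14 in lung and −1.74 in esophagus and at least 513-fold higher in lung than in intestine. Sftpa1, another surfactant protein gene, was at −1.0 in lung and −4.37 in esophagus, with a bound of 60.7-fold. For Nkx2-1, Sftpc and Sftpa1 the stomach was dim too. The log2 bound of Tbx5, 10.40, ran from 8.98 to 10.61 over the 4 other scalings and was 5.75 under normexp. Under normexp that of Nkx2-1 was 5.35 against 9.39, and that of Sftpc was 4.82. Sycp2, a protein of the meiotic chromosome axis, was at −1.19 in lung and dim on the other 3 arrays, with a bound of 53.1-fold from 1 probe; its other probe lay below the lung limit.

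The genes highest in intestine were of other kinds. Colec10, a secreted collectin, was at 4.22 in intestine, 2.56 in stomach, −1.46 in esophagus and −0.73 in lung, 31.0-fold higher in intestine than in lung. Saa2 and Saa1, serum amyloid A proteins made in quantity by the liver, were at 3.99 and 2.97 in intestine and at −0.18 and −0.80 in lung. Their differences were 18.0-fold and 13.7-fold, and both bright probes of Saa1 gave at least 13.7-fold. Pitx1, a homeobox factor of the posterior body and hindlimb, was at 2.40 in intestine, 6.29 in stomach, 4.71 in esophagus and −1.33 in lung, so that lung stood below the other 3 arrays. Hoxb7 was at 2.09 in intestine and 2.57 in stomach against −1.60 in esophagus and −1.57 in lung, a 12.7-fold difference. Dusp26, a phosphatase, Psd, an exchange factor for small GTPases, and Fhl2, a LIM domain protein of muscle, were 17.3-fold, 13.2-fold and 11.8-fold higher in intestine.

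The remaining 4 genes of this group are a secreted protein, a mitochondrial enzyme and 2 noncoding RNAs. Grn, which encodes granulin, was at 8.58 in intestine and 4.50 in lung by its brightest probe, a 16.9-fold difference, while its other bright probe gave 1.06-fold. Rn28s1, the 28S ribosomal RNA, was at 6.51 in intestine, 8.06 in stomach, 8.42 in esophagus and 2.78 in lung. Lars2, a mitochondrial leucyl-tRNA synthetase, was at 8.53, 10.08, 10.20 and 4.90. Rmrp, a noncoding RNA of an RNA-cleaving complex, was at 2.31, 3.91, 2.52 and −1.58. In these last 3 genes lung was the lowest array and stomach or esophagus the highest.

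Where lung was dim, Syt10, a synaptotagmin, was at 5.45 in intestine, 3.25 in stomach and −4.43 in esophagus, at least 229-fold higher in intestine than the lung limit. Its log2 bound of −7.84 was −6.03 under normexp. Tdh, a threonine dehydrogenase, had the next bound, 44.8-fold. Mesenchymal factors of the gut followed. Nkx2-3 was at 2.99 in intestine, −0.80 in stomach and −3.83 in esophagus (at least 41.6-fold), and Hand1, a basic helix-loop-helix factor, was at 2.80 in intestine and −3.01 in stomach (at least 36.5-fold). Mab21l2 was at 2.69 in intestine, −3.25 in stomach and −4.63 in esophagus (at least 33.9-fold). Lgals2, a galectin, had a bound of 27.6-fold. All 6 were highest in intestine among the 4 arrays.

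A stricter group rests on several probes. Of the genes with 2 or more bright probes, 61 of 407 higher in lung and 58 of 237 higher in intestine had every bright probe at least 2-fold apart. On the lung side Bmper, a secreted modulator of BMP signals, was at 2.68 in lung and 1.63 in esophagus, against −1.63 in stomach and −1.94 in intestine, and its 2 probes gave 24.5-fold and 24.2-fold. Mia, a small secreted cartilage protein, was at 2.64, −0.41, −3.44 and −2.32, and its 3 probes gave at least 13-fold. Pthlh, the parathyroid hormone-like signal, was at −1.54, −3.05, −3.33 and −5.62, with at least 16.6-fold by both probes. Vsnl1, Fam20a, Ly6h and Nkain4 followed, with weakest probes between 6.03-fold and 18.5-fold. On the intestine side Cartpt, a neuropeptide, was at 1.87 in intestine and 2.02 in stomach and dim in lung, with a weakest bound of 15.6-fold. Hand2 was at 1.80 in intestine, 1.62 in stomach and −0.20 in esophagus and dim in lung, with a weakest bound of 10.3-fold. Angptl6, an angiopoietin-like secreted protein, was at 3.57 against 0.20 in lung, with at least 9.93-fold. Hpgd, which breaks down prostaglandins, Vil1, the actin-bundling protein of microvilli, and Tagln3, Myo6, Rpgrip1 and Sfrp1 completed the group, with weakest probes between 4.38-fold and 8.20-fold.

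**Figure D2:**
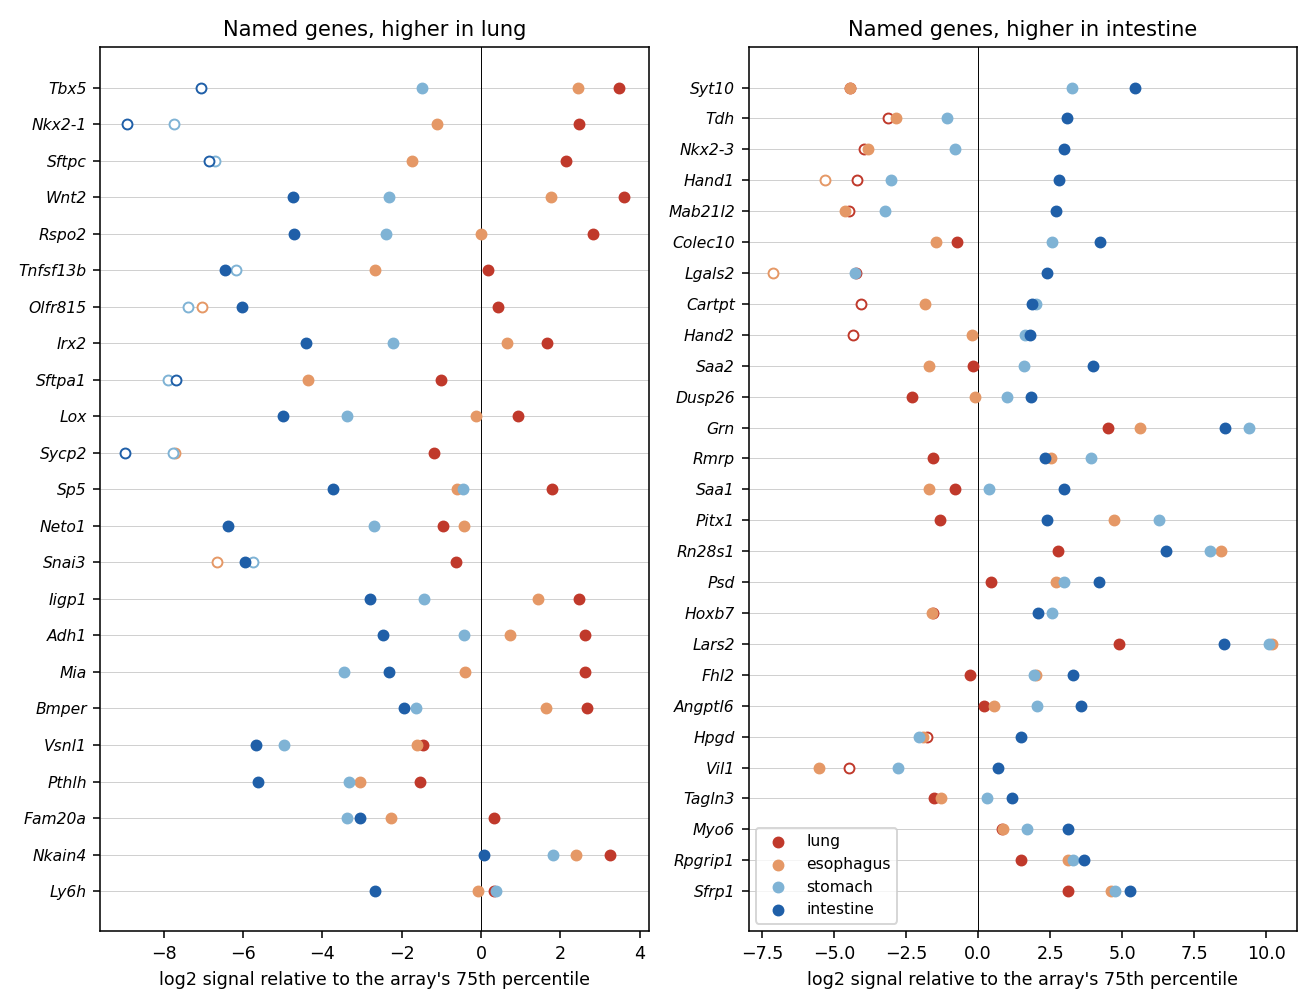
Levels on the 4 arrays of the named genes with the largest differences, the largest bounds or several agreeing probes, on the log2 scale, with the 75th percentile of its array at 0. Open points are not well above background. On the lung side most esophagus points lie between lung and the other 2 organs, as for Wnt2 (1.76), and on the intestine side most stomach points lie nearer to intestine, as for Syt10 (3.25).

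The lung epithelium list held 28 genes, of which 19 could be compared. Of these 19, 10 were higher in lung and 2 in intestine, with a median difference of 2.07 against 0.15 over all genes compared. Bounds were used for 7 of the 19. Among them Nkx2-1, Sftpc, Sftpa1, Cldn18 and Irx5 were dim in intestine and could only come out toward lung. Without the bounded genes the median was 1.43. Besides the factors above, Irx1 was at 3.52 in lung and 2.90 in esophagus, against −2.28 in stomach and −1.10 in intestine, a 24.6-fold difference. Wnt7b, a ligand that the lung epithelium sends to its mesenchyme, was at 0.89, −0.44, −2.81 and −2.65, 11.6-fold higher in lung. Sox9, a factor of the distal tips, was at 1.97, 1.55, 0.49 and −0.37, a 5.05-fold difference. Etv5, a target of FGF signals in the tips, was at −0.81, −1.02, −1.51 and −2.87, a 4.17-fold difference. Cldn18, a tight junction protein, and Irx5 were dim in intestine, with bounds of 36.8-fold and 35.9-fold. Foxp1, Foxp2, Foxp4, Abca3 and Lamp3 were within 2-fold, and Lpcat1 and Hopx, genes of the later alveolar epithelium, were dim in lung and higher in intestine by at least 3.49-fold and 2.13-fold. The bright probes of Gata6 and Id2 disagreed in sign. Mature airway and alveolar genes were low: Scgb1a1, Foxj1, Ager, Muc1 and Slc34a2 were below the lung limit, and Sftpb, Sftpd and Napsa were not well above background on either array.

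The lung mesenchyme list had 13 of 16 genes compared, of which 10 were higher in lung and 2 in intestine (median 1.55). Tbx5 was dim in intestine and could only come out toward lung, and over the genes measured on both arrays the median was 1.48. Lef1, a nuclear partner of beta-catenin, was at 1.56 in lung and 0.19 in esophagus, against −1.09 in stomach and −2.93 in intestine, 22.5-fold higher in lung. Nebl, a nebulin-family actin-binding protein, was at −1.48, −1.32, −5.75 and −6.00, a 23.0-fold difference in which esophagus and lung stood together. Foxd1, a forkhead factor, was at −1.0 in lung and −5.18 in intestine but highest in esophagus, at 1.98. Tbx2 (3.44-fold), Fgf10 (2.93-fold), Hoxb5 (2.65-fold), Tbx3 (2.60-fold) and Hoxa5 (2.31-fold) differed by less. Under normexp the log2 differences of Tbx2 (0.43), Hoxa5 (0.29), Hoxb5 (0.12) and Tbx3 (−0.0025) were under the threshold, and Tbx3 changed sign. Fgf10 was at 0.49 in lung, 0.26 in stomach, −1.06 in intestine and −1.33 in esophagus, so that stomach was closer to lung than esophagus was. Foxf1 and Tcf21, which mark gut and lung mesenchyme alike, were higher in intestine by 2.87-fold and 2.62-fold, and under normexp the log2 difference of Foxf1 was −0.05.

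Because the tissues are mixtures, fewer cells of a type and less RNA per cell cannot be told apart in any of these values. Some general epithelial genes were close between the organs: Epcam was at 0.27 in lung and 0.16 in intestine, Krt18 at 4.82 and 4.87, and Cdh1 at 0.14 and −0.62. Others were not: of the 19 simple epithelium genes compared, 9 were higher in lung and 1 in intestine (median 0.76). The shares were 47.4% and 5.26%, against 10.7% and 7.89% of all genes compared. Cldn6 (4.30-fold), Krt7 (3.40-fold) and Cldn3 (2.68-fold) were among the 9. Under normexp the log2 differences of Krt7 (0.68) and Cldn3 (0.92) were under the threshold. Cldn10 was at −0.28 in lung and −1.51 in esophagus, against −2.98 in stomach and −4.29 in intestine, a 16.1-fold difference. Foxa2, a forkhead factor of endoderm, was at 2.89, 2.88, 2.53 and −0.16, 8.29-fold higher in lung and similar in the 3 foregut organs. The 1 gene higher in intestine was Krt19, at 3.0-fold. Among 20 general mesenchyme genes, 5 were higher in lung and 4 in intestine (median 0.37, and −0.83 under normexp background correction). Their shares were 25% and 20%, against 10.7% and 7.89% of all genes compared. Prrx2, a homeobox factor of mesenchyme, was 6.75-fold higher in lung, at 3.13 against 0.38. Dcn and Lum, small proteoglycans of the matrix, were 4.68-fold and 4.59-fold higher in intestine.

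The Wnt pathway was followed through ligands, modulators and target genes. Of 19 ligands on the array, 5 could be compared, and Wnt2, Wnt7b and Wnt11 were higher in lung while none was higher in intestine (median 2.69). Wnt11 was at 0.60 in lung and 0.02 in esophagus, against 0.36 in stomach and −2.08 in intestine, a 6.43-fold difference. Wnt5b and Wnt9a were within 2-fold. Another 7 ligands, among them Wnt5a, Wnt4, Wnt2b and Wnt6, were bright in intestine only, at levels below the lung limit. No fold or direction is given for them. Of 16 modulators and targets compared, 9 were higher in lung and 3 in intestine (median 1.53). The targets and nuclear partners Sp5, Lef1, Notum (15.7-fold), Znrf3 (3.23-fold), Tcf7 (2.97-fold) and Nkd1 (2.82-fold, with a log2 difference of 0.32 under normexp) were higher in lung. Notum, a secreted enzyme that inactivates Wnt proteins, was at −0.82 in lung and −2.90 in esophagus, against −4.15 in stomach and −4.80 in intestine. Axin2, a feedback target used widely as a readout of the pathway, did not follow them: it was at −1.82 in lung and −1.47 in esophagus, against −1.78 in stomach and −1.66 in intestine. The secreted inhibitors divided. Sfrp2 was 8.06-fold higher in lung, at 3.81 against 0.80. Sfrp1 was 4.38-fold higher in intestine by its brightest probe, at 5.25 against 3.12, and its other probe, dim in lung, gave a log2 bound of −2.65. Dkk2 was at least 16.4-fold higher in intestine, and Dkk3 at least 2.06-fold, a call made in 1 of the 4 other scalings. Lgr5, a receptor for R-spondins and a marker of the later intestinal stem cell, was at −2.05 in lung and −3.86 in intestine, 3.52-fold higher in lung.

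Sp5 is shown with the sequence before its start site because it is a known direct target of the pathway, and its window holds 2 copies of CTTTGA, the core of the Tcf/Lef binding motif. The window is the 250 bases before the RefSeq start in GRCm38.p6, chr2:70474673-70474922 on the plus strand, with the motif in capitals at 204 and 104 bases before the start. The search covered both strands, and 13.8% of all 32851 promoter windows of the same length hold the motif. The window was chosen after its matches were seen, and a match is letters in a window, not a measured site.
Sp5: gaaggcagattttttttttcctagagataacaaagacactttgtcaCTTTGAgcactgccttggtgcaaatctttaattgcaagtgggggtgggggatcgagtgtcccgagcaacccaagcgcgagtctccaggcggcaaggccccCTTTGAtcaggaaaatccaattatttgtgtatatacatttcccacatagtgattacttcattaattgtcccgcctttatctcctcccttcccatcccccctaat

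The intestine epithelium list had 18 of 32 genes compared, of which 12 were higher in intestine and 1 in lung (median −2.30). Lung was dim for 11 of the 18, which could only come out toward intestine, and over the 7 measured on both arrays the median was −0.20. Lgals2 and Cdx2 (at least 19.6-fold) led, followed by Isx, a homeobox factor of the intestinal epithelium, at 1.62 in intestine and −4.59 in stomach and dim in lung and esophagus (at least 16.2-fold). Vil1 was at 0.67 in intestine, −2.79 in stomach and −5.53 in esophagus (at least 8.37-fold). Lgals4 was at 0.64 and −1.03 in intestine and stomach (at least 8.17-fold, with at least 3.62-fold by the weaker probe). The fatty acid binding proteins Fabp1 and Fabp2 were at 0.06 and −0.17 in intestine, with bounds of 5.45-fold and 4.67-fold. Under normexp the log2 bounds of Lgals4 (−0.99), Fabp1 (−0.45) and Fabp2 (−0.49) were under the threshold. Krt20 was 5.80-fold higher in intestine. Gipc2, Ephb2 and Ephb3 were within 2-fold, and Hnf4a was dim in lung with a bound under 2-fold. Products of the mature villus and crypt, among them Sis, Apoa4, Rbp2, Guca2a and Ascl2, were below the lung limit in intestine itself.

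Fabp1 is shown because its window holds TTTATG, the core of the motif that Cdx proteins bind (read on the other strand as CATAAA). The window is the 250 bases before the RefSeq start in GRCm38.p6, chr6:71199629-71199878 on the plus strand. The capitals mark the Cdx core at 226 and 88 bases before the start and a TATA box, TATAAA, at 30. Over all promoter windows of this length, 10.8% hold TTTATG and 12.4% hold TATAAA on either strand. It was chosen after its matches were seen.
Fabp1: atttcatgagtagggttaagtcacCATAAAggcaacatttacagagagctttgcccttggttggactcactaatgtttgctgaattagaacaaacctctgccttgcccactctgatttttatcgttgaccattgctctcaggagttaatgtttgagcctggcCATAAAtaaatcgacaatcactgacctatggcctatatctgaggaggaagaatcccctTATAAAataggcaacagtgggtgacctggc

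The intestine mesenchyme list had 13 of 16 genes compared, of which 8 were higher in intestine and none in lung (median −2.34). Lung was dim for 6 of them, which could only come out toward intestine. This list, like the other lists, was written with earlier results of these data known. Beyond Tdh, Nkx2-3, Hand1, Mab21l2 and Hand2, Hlx, a homeobox factor of visceral mesenchyme, was at 0.55 in intestine, −0.34 in stomach and −0.54 in esophagus (at least 7.67-fold). Meis2, a homeobox partner of Hox proteins, was 2.21-fold higher in intestine. Foxf2, Pdgfra, Bmp5 and Rerg were within 2-fold, and over the genes measured on both arrays the median was −0.30. Zfhx3 had probes that disagreed in sign.

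The Hox genes, whose order along each chromosome cluster follows their order along the body, differed by group. Of 11 genes of groups 1 to 5 compared, 5 were higher in lung and 1 in intestine (median 1.02, and 0.03 under normexp). Hoxc4 was at 0.51 in lung and −2.01 in esophagus, against −2.50 in stomach and −2.53 in intestine, 8.24-fold higher in lung. Hoxb5 was at 3.37, 1.04, 2.43 and 1.97, and Hoxa2 and Hoxb2 were higher in lung by 2.33-fold and 2.04-fold. Hoxd4 went the other way: it was at 0.14 in intestine, 0.30 in stomach and −0.66 in esophagus and dim in lung, at least 5.79-fold higher in intestine. In groups 6 to 8, Hoxb7 and Hoxa7 were higher in intestine and Hoxb6 in lung. Hoxa7 was at 2.42 in intestine, 4.42 in stomach, −0.55 in esophagus and −0.91 in lung, a 10.1-fold difference, and like Hoxb7 it was highest in stomach. Hoxb6 was at 3.41 in lung and −0.30 in esophagus, against 2.42 in stomach and 2.11 in intestine, a 2.45-fold difference. Under normexp Hoxc4 alone of the 5 genes of groups 1 to 5 higher in lung was still 2-fold apart, with Hoxa2 at a log2 difference of 0.50, and Hoxb2 and Hoxb6 changed sign, to −0.26 and −0.026. Hoxd4 was then at a difference of −0.93. Of 8 genes of groups 9 to 13 compared, 6 were higher in intestine and none in lung (median −2.13), with lung dim for each of them, so that none could have been called toward lung. Hoxc9 (at 1.24 in intestine, at least 12.4-fold) and Hoxa11 (at 1.09, at least 11.2-fold) led. Hoxa10, Hoxd10 and Hoxd9 were at −0.25, −0.27 and −0.28 in intestine, with bounds of 4.40-fold, 4.35-fold and 4.31-fold. Under normexp the log2 bounds of Hoxa10 and Hoxd10 were −0.18 and −0.16, and Hoxd9 had no fold. Of the 6 genes, Hoxa9 was the exception among the other organs, at 0.85 in intestine, −0.03 in stomach and −0.14 in esophagus. Hoxd13 and Hoxa13, the last of their clusters, were below the lung limit in intestine.

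Of 13 hedgehog pathway genes compared, none was higher in lung and 4 were higher in intestine, with a median of 0.10 whose sign changed with the scaling. The share higher in intestine was 30.8%, against 7.89% of all genes compared. Shh itself, the epithelial ligand, was at −0.53 in lung and −0.63 in intestine. The receptor and target Ptch1 was at −0.86 in intestine, 0.78 in stomach and 0.91 in esophagus and was dim in lung, at least 2.89-fold higher in intestine. The co-receptor Gas1 was 3.34-fold higher in intestine, while the target Gli1 was at −1.83 and −1.45 and the target and inhibitor Hhip at 0.39 and −0.37, within 2-fold. Ihh and Disp1 completed the 4 genes higher in intestine. Of these, Ptch1 and Ihh were dim in lung and could only come out toward intestine. Under normexp Gas1 was still at least 2-fold apart (−1.42), Disp1 was at −0.01, and Ptch1 and Ihh had no fold. In the FGF list, Fgf8 (4.97-fold), Fgf10, Fgf5 (2.39-fold) and Fgf18 (2.06-fold) were higher in lung out of 10 genes compared, none was higher in intestine, and the receptors Fgfr1, Fgfr2 and Fgfr4 were within 2-fold. The share higher in lung was 40%, against 10.7% of all genes compared. Fgf8 was low, at −2.15 in lung, and under normexp the log2 difference of Fgf18 was 0.52. Of 9 FGF response genes, Etv5 and Spred2 (2.63-fold) were higher in lung, and Dusp6, Etv4 and Spry1 were within 2-fold.

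In the BMP list, 2 of 16 genes were higher in lung and 4 in intestine (median 0.01, with a sign that changed with the scaling). The shares were 12.5% and 25%, against 10.7% and 7.89% of all genes compared. Bambi, a decoy receptor, was at 3.77 in lung and 1.75 in esophagus, against 1.20 in stomach and 1.82 in intestine, 3.88-fold higher in lung. The secreted antagonists Grem1 (at least 3.57-fold) and Nog (at least 2.01-fold) and the ligand Gdf6 (at least 6.40-fold) were higher in intestine and dim in lung. Under normexp Bambi (0.62), Gdf6 (−0.98) and Grem1 (−0.09) were under the threshold on the log2 scale and Nog had no fold. Bmp4 was at 1.12 in lung and 1.97 in intestine, a difference of −0.85 that is under the threshold. Of 12 retinoic acid genes, 5 were higher in intestine and 3 in lung (median −0.33). These shares were 41.7% and 25%, against 7.89% and 10.7% of all genes compared. The intestine side held genes of retinoid transport and synthesis: Rbp4 (5.49-fold), Aldh1a2 (2.67-fold), Aldh1a1 (2.63-fold), Rdh10 (2.56-fold) and Crabp1 (2.37-fold). The lung side held the receptors Rarg (2.41-fold) and Rarb (2.25-fold) and the binding protein Crabp2 (2.46-fold). Rbp4 also stands in the liver list, and under normexp the log2 difference of Rdh10 was −0.63. Of 13 Notch pathway genes, Jag2 and Heyl were higher in lung and Dll3 in intestine, with Heyl at a log2 difference of 0.77 under normexp and Dll3 without a fold, and Notch1, Notch2, Notch3, Notch4 and Hes1 were within 2-fold. The Notch shares, 15.4% and 7.69%, lie near the 10.7% and 7.89% of all genes compared.

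**Figure D3:**
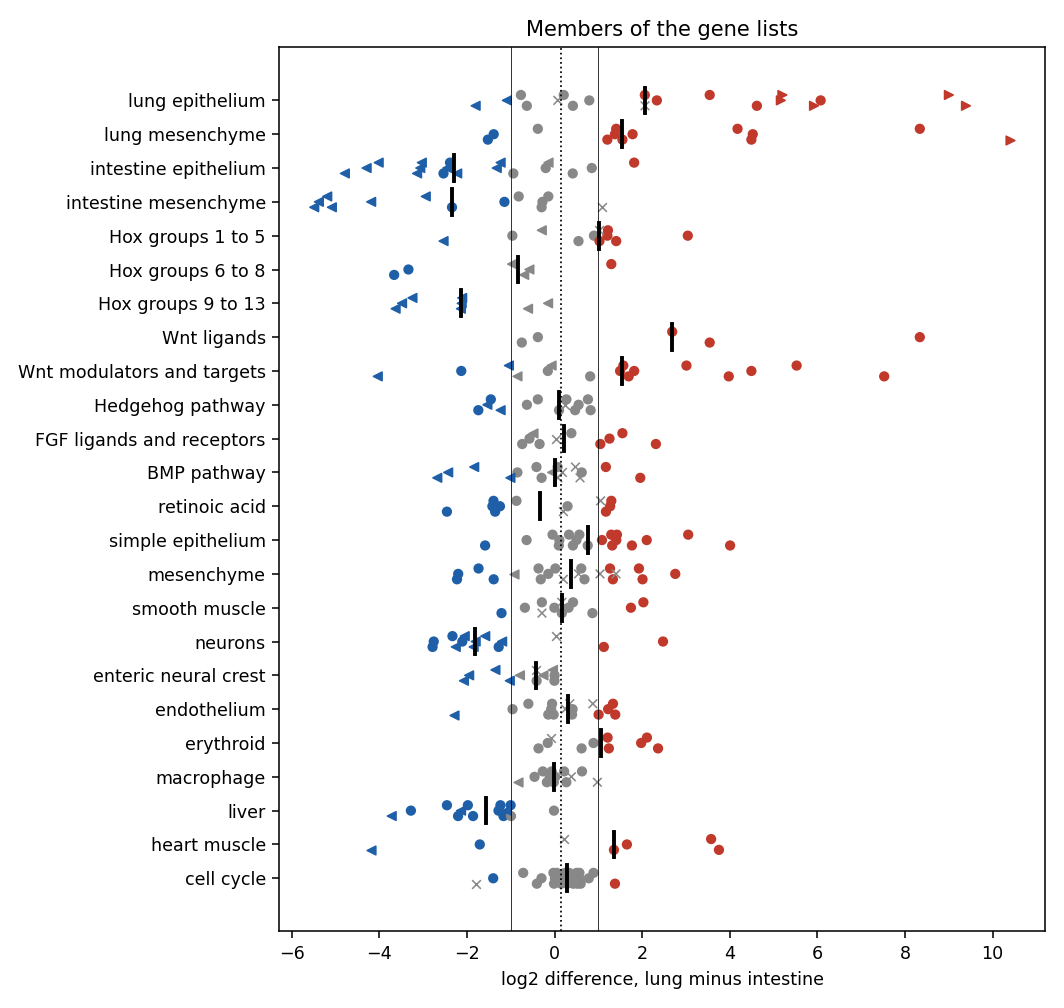
Difference between lung and intestine (log2, x axis) of each list member that could be compared, with 1 row per list. Circles are genes measured on both arrays, triangles are bounds and point to the side on which the true value lies, crosses are genes whose probes disagree in sign, black bars are list medians, and the dotted line is the median of all genes compared, 0.15. The lung lists and the Wnt lists lie to the right, the intestine lists, the neurons and the liver list to the left.

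Genes of cell types that could accompany either organ also differed, and their part in the results above was not tested. Of 14 neuron genes compared, 11 were higher in intestine and 2 in lung (median −1.82, and −1.69 over those measured on both arrays). Lung was dim for 6 of the 14, which could only come out toward intestine. Nefl, a neurofilament, was at −0.77 in lung and 2.43 in esophagus, against 2.22 in stomach and 2.02 in intestine, 6.89-fold higher in intestine. Tubb3, the neuronal tubulin, was at −1.48, −0.04, 1.53 and 1.28, a 6.76-fold difference, and Elavl4 was 5.03-fold higher. Lung was thus the lowest array for these genes. Summed over the 15 bright members, the signal relative to each array's 75th percentile was 20.2 in lung and 33.9 in esophagus, against 47.1 in stomach and 33.0 in intestine. The exceptions were Dcx (5.56-fold) and Isl1 (2.18-fold, with a log2 difference of 0.75 under normexp), higher in lung. Under normexp the median of the neuron list was −0.90. Of the 11 genes higher in intestine, Stmn3 (−0.90), Elavl3 (−0.43), Dbh (−0.18) and Gap43 (−0.05) were then under the threshold. Stmn2, Chga and Prph had no fold, while Nefl, Tubb3, Elavl4 and Nefm were still at least 2-fold apart. Of 11 enteric neural crest genes, 4 were higher in intestine and none in lung, among them Gfra1, Gdnf and Edn3, with bounds of 3.86-fold, 2.55-fold and 2.03-fold. Under normexp the log2 bound of Gfra1 was −0.23 and Gdnf and Edn3 had no fold. Their summed signal was 6.72 in lung and 10.8 in intestine. The 2 probes of Ednrb disagreed, with log2 differences of −0.43 and 1.56, and the neural crest gene Foxd3 was at −1.21 on both arrays. Among the genes named above, Cartpt, Syt10, Tagln3 and Psd are known from neurons.

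Of 14 liver genes compared, 12 were higher in intestine and none in lung (median −1.57, and −1.18 under normexp). Lung was dim for 3 of the 14, which could only come out toward intestine. Over the scalings 9 to 13 were higher in intestine. Under normexp Apoa1 (−0.33), F2 (−0.55) and Apoa2 (−0.90) were under the threshold on the log2 scale, and Apob had no fold. Trf, the iron carrier transferrin, was at 1.33 in intestine, −1.68 in stomach and −1.82 in esophagus and dim in lung, at least 13.2-fold higher in intestine. Ambp was at 4.88 in intestine and 1.60 in lung, a 9.71-fold difference, and Vtn was 4.60-fold higher. Afp and Alb were present on both arrays, at 5.63 and 2.98 in intestine and 4.39 and 1.98 in lung, with differences of 2.35-fold and 2.0-fold. The summed signal of the 17 bright liver genes was 131 in intestine and 40.0 in lung, with 17.4 in esophagus and 15.3 in stomach, so that lung ranked next to intestine. Saa1, Saa2 and Colec10, named above, are known from the liver. In the pancreas and bile duct list, 7 genes were compared. Cpa1, a pancreatic carboxypeptidase, was at least 12.4-fold higher in intestine, at 1.24 with lung dim, while Pdx1 and Ptf1a were below the lung limit on both arrays. Nkx6-1 was 4.29-fold higher in lung, at 0.33 against −1.77, and highest in esophagus, at 2.58.

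Of 17 heart muscle genes bright on lung or intestine, 7 could be compared, and 4 were higher in lung and 2 in intestine. The 2 were Actc1, cardiac actin (3.26-fold), and Hand2, which also stands in the intestine mesenchyme list. Tnnt2, cardiac troponin T, was at 0.43 in lung and 3.54 in esophagus, against −2.24 in stomach and −3.32 in intestine, 13.5-fold higher in lung than in intestine. Myl7, the atrial myosin light chain, was at 2.58, 6.06, 0.23 and −1.0, an 11.9-fold difference. Esophagus was the highest array for both, and the summed heart signal was 143 in esophagus, 10.8 in lung, 9.38 in stomach and 8.51 in intestine. Myh6, Nppa, Mybpc3 and Tnnc1 were below the lung limit in lung. Tbx5 belongs to heart and lung alike, and Tbx18, a factor of mesothelium and heart, was at −1.44 in lung, with −0.41 in esophagus and −4.88 in stomach, and at least 44.6-fold higher in lung than in intestine. Of 10 erythroid genes, 5 were higher in lung and none in intestine (median 1.05). The globins Hba-a1, Hbb-bh1 and Hbb-y were at 9.25, 7.75 and 8.88 in lung and at 6.89, 5.64 and 6.90 in intestine, differences of 5.14-fold, 4.31-fold and 3.94-fold, while Klf1 and Slc4a1 were within 2-fold. Under normexp the log2 differences of these 3 globins were under the threshold, at 0.75, 0.65 and 0.59, and Hba-x changed sign, from 1.21 to −0.30. The summed erythroid signal was 1433 in lung and 353 in intestine. Over the scalings 4 to 6 erythroid genes were higher in lung, and under normexp the median was 0.28. Of 4 pharynx and thyroid genes compared, Tbx1 and Isl1 were higher in lung, and Eya1 (1.42-fold) and Hhex (1.09-fold) were within 2-fold. Tbx1, a factor of the pharynx, was at 2.48 in lung and 3.66 in esophagus, against −0.87 in stomach and −1.39 in intestine, a 14.7-fold difference. In the urogenital ridge list, with 4 genes compared, Cdh16, a cadherin known from kidney and thyroid, was at 0.77, −1.26, −3.90 and −4.06, 28.5-fold higher in lung.

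In the trachea and cartilage list, 4 of 7 genes were higher in lung and 2 in intestine (median 1.33, and 0.50 under normexp): Sox9, Sox6 (3.56-fold), Col2a1 (2.81-fold) and Matn4 (2.51-fold) against Col9a1 (4.57-fold) and Col9a2 (2.92-fold). Of 3 skeletal muscle genes compared, Myh8 (at least 26.6-fold) and Tnnt1 (4.04-fold) were higher in lung and Acta1 (at least 2.97-fold) in intestine. Of 13 macrophage genes compared, none was 2-fold apart in either direction (median −0.02, with a sign that changed with the scaling), and summed macrophage signal was 12.1 in lung and 11.7 in intestine. Of 16 endothelial genes, 4 were higher in lung and 1 in intestine: Cldn5 (2.61-fold), Lyve1 (2.52-fold), Esam (2.34-fold) and Sox18 (2.01-fold) against Pecam1, which was dim in lung (at least 4.90-fold). Of these 5 only Lyve1 was still 2-fold apart under normexp. Pecam1 could only come out toward intestine. The endothelial shares were 25% and 6.25%, against 10.7% and 7.89% of all genes compared. Of 12 smooth muscle genes, Cald1 (4.08-fold) and Myh11 (3.35-fold) were higher in lung and Actg2 (2.31-fold) in intestine, while the other bright probe of Cald1 gave a log2 difference of 0.25. The smooth muscle shares, 16.7% and 8.33%, lie near the 10.7% and 7.89% of all genes compared. Of 25 cell cycle genes, Ccnb1 was 2.60-fold higher in lung, Cdc45 2.64-fold higher in intestine and the rest were within 2-fold or had probes that disagreed; neither call held under normexp (0.17 and −0.59). Of the sex-linked genes measured on both arrays, the Y-linked Ddx3y and Kdm5d were 2.60-fold and 2.72-fold higher in lung, the Y-linked Eif2s3y was 1.46-fold higher in intestine, and the X-linked Xist was 1.79-fold higher in lung.

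Counts also differed between broad classes of transcripts and between levels of signal. Of 75 cytosolic ribosomal protein genes, 30 were higher in lung and 1 in intestine, with a median of 0.96. Over the 4 other scalings that median ran from −0.07 to 1.17 and the number higher in lung from 3 to 45, and under normexp the median was −0.57, so that their direction depended on the processing. Of 58 nuclear respiratory chain genes, 1 was higher in lung and none in intestine, with a median of 0.10 that ran from −0.17 to 0.30 over the scalings and was −1.24 under normexp. Of 1023 chemoreceptor genes, which tissues outside sense organs rarely express, 400 were bright on lung or intestine and 17 could be compared, the others being bright in intestine below the lung limit. The 8 of these 17 that were higher in lung, Olfr815 among them, passed through the lung array and had to be high there, so that nothing is read from their number. By mean level, 16.6% of the 2087 genes below −1 were higher in intestine, 9.96% between −1 and 1, 3.95% between 1 and 3 and 1.90% of the 2101 genes over 3. The share higher in lung was 16.3%, 10.1%, 8.36% and 9.66% in the same order. Of the genes higher in lung, 124 lay within 2-fold of the lung limit.

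Where a gene had a further probe measured on both arrays, the 2 probes were set against each other. The probe next in brightness had the sign of the brightest in 58.2% of all 2506 such genes. Among 366 genes at least 2-fold higher in lung by the brightest probe it had the same sign in 72.7%, and in 98 genes it was also at least 2-fold. Among 94 genes higher in intestine it had the same sign in 62.8%, and in 29 it was also at least 2-fold. Of the genes at least 4-fold apart, 35 of 39 higher in lung and 8 of 11 higher in intestine kept the sign. The median of the further probe was 0.46 where that of the brightest was 1.26 on the lung side, and −0.30 where it was −1.25 on the intestine side. Most members, 712 higher in lung and 586 higher in intestine, were measured by 1 bright probe and have no such check.

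**Figure D4:**
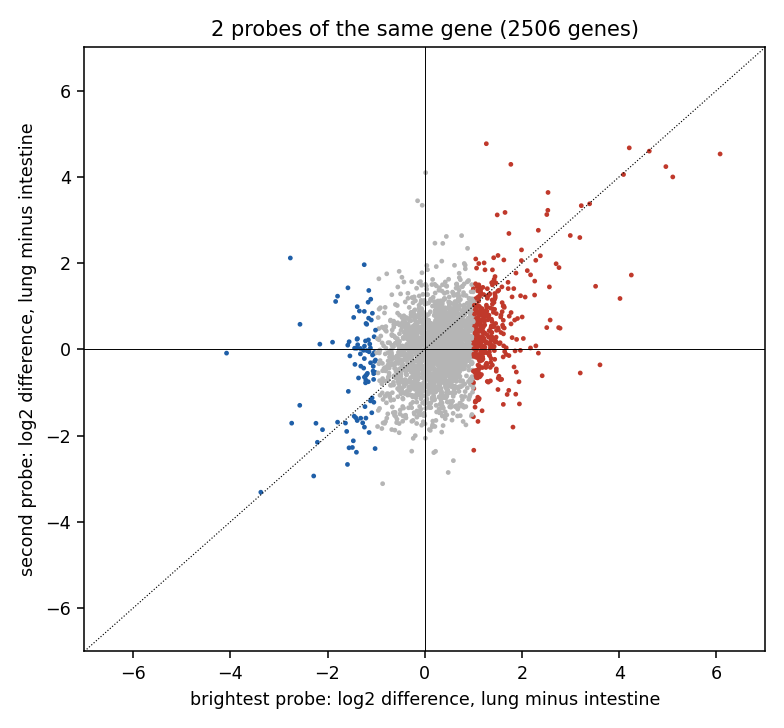
Difference between lung and intestine (log2) by the brightest probe (x) and by the probe next in brightness (y) of 2506 genes with both probes measured on both arrays. Red and blue points are at least 2-fold higher in lung and in intestine by the brightest probe, and the dotted line marks equal values. In the 39 genes at least 4-fold higher in lung by the brightest probe, the medians of the 2 probes were 2.58 and 1.73. The SD of the difference between their probes was 1.24 (log2), against 0.90 over all 2506 genes. Grn lies alone at the left, at −4.08 by its brightest probe and −0.09 by the other.

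The esophagus and stomach arrays were not used to choose the members, and their difference shares no array with the lung to intestine difference. Over all genes compared, esophagus minus stomach had a median of −0.18 (log2), and 33.5% of genes were higher in esophagus. Of the genes higher in lung, 60.8% were higher in esophagus than in stomach (median 0.14); 17.2% were at least 2-fold higher in esophagus and 1.17% in stomach, against 3.54% and 2.77% of all genes. Of the genes higher in intestine, 27.0% were higher in esophagus (median −0.37), 4.53% at least 2-fold, and 17.6% were at least 2-fold higher in stomach. The separation was wider among genes at least 4-fold apart: 80.8% of those higher in lung were higher in esophagus (median 0.96), and 23.2% of those higher in intestine (median −0.62). Among the genes with several agreeing probes the shares were 65.6% and 25%. Wnt2, Tbx5, Irx1 and Nebl are examples of the lung side, and Syt10, Hoxb7, Hoxa7 and Nkx2-3 of the intestine side. The esophagus array also held heart transcripts, with a summed signal of 143 against 9.38 in stomach. It held Sftpc (−1.74) and Nkx2-1 (−1.10) too, both dim in stomach. What neighbouring heart or lung tissue adds to these shares was not tested.

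Against the 2 compared organs, esophagus lay nearer to intestine than to lung for 67.9% of the genes higher in lung, and stomach for 83.2%. For the genes higher in intestine, esophagus lay nearer to lung for 46.1% and stomach for 25.5%. Of the 1119 genes higher in lung, 577 were also at least 2-fold above both esophagus and stomach, and in 299 esophagus was at least 2-fold above intestine. Of the 823 genes higher in intestine, 165 were also at least 2-fold above both other organs, and in 473 stomach was at least 2-fold above lung. These counts and shares compare the dim lung array with the brighter ones and use lung or intestine values that the choice of members used too. They were not made over all genes compared, so that nothing is read from their size.

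**Figure D5:**
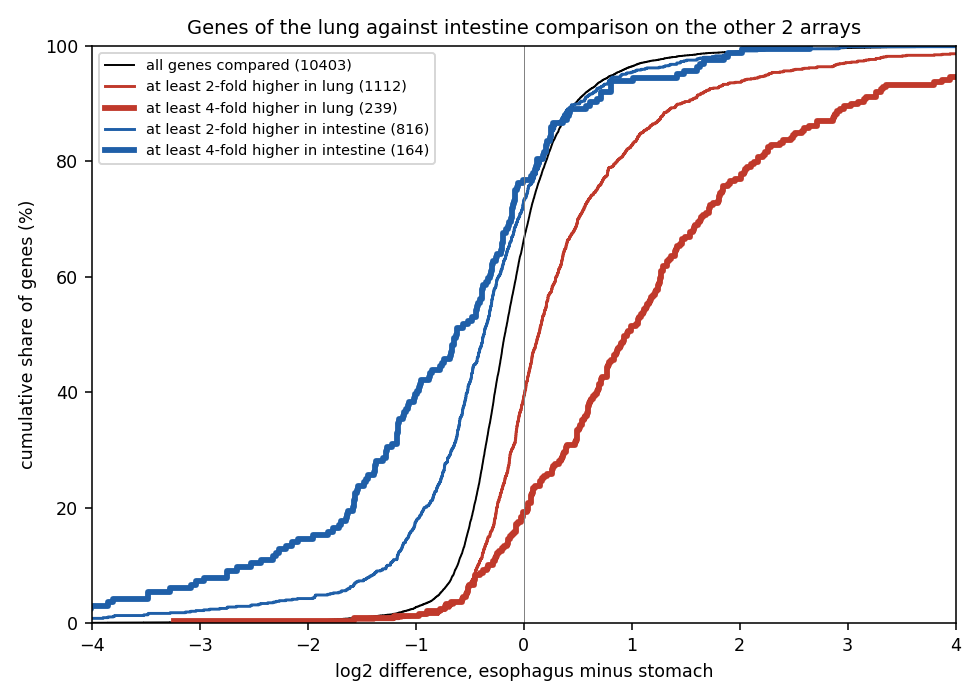
Cumulative share of genes (%) by their esophagus minus stomach difference (log2) for all genes compared (black) and for the genes at least 2-fold (thin) and 4-fold (thick) higher in lung (red) and in intestine (blue). The red curves lie to the right of the black curve over most of the range and the blue curves to the left, with medians of 0.96 and −0.62 for the 4-fold sets against −0.18 for all genes.

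At the threshold itself the members were not distinct from their neighbours. On the lung side Ghitm (2.001-fold), Lmbrd1 and B2m lay just inside and Lman1 (1.997-fold), Ccp110 and Cxadr just outside. On the intestine side Abhd4 (2.001-fold), Echdc3 and Polr2k lay just inside and Mdm2 (1.999-fold), Zbtb33 and Ramp3 just outside. The distance between these genes is far below the spread between probes of a gene.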

How the data were processed

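Total RNA of 4 dissected primordia was measured, 1 array per organ, and lung was compared with intestine. Per the labels' protocols, an RNeasy micro kit gave the RNA, which a low-input kit amplified and labelled with Cy3 for 1 colour; amplification of small samples can add differences that cannot be told apart from the organ. Per the file headers, the deposited intensity values come from Agilent Feature Extraction 10.5.1.1, protocol GE1_105_Dec08, array design 014868 (build mm8), and the processed signal is background-subtracted, with each array on its own scale. The values in the deposited series table are log2 values, and compared with the scanner signals they equal log2 signal minus the 75th percentile of the array (correlations of 0.99996 to 0.99998, column medians −3.56, −2.97, −3.17 and −3.47 for lung, esophagus, stomach and intestine), from which its scale, centring and direction were taken.

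Here log2 processed signal minus the 75th percentile over non-control probes was used. Spots with a feature outlier flag were left out (32 of 41174 probes lost), copies of a probe were averaged, and no spot was saturated. A probe counted as bright where at least 0.5 of its spots were well above background. Of the probes, 24375 (59.2%) were named by accession through the RefSeq table of GRCm38.p6, and the rest were not named. A gene took its brightest probe. A dim side was set to its own value or to the lowest level well above background on that array, whichever was higher, which gives "at least" folds; with several bright probes every difference or bound had to share a sign. Promoter windows were taken from RefSeq by symbol; 77.6% and 77.9% of the members had one, which is under 80%, so that a comparison of motif shares between the sets was void and was not made.

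Members and the 34 gene lists (558 genes, 532 on the array) were chosen with earlier results of these data known. The genes named were the 12 largest differences each way among genes measured on both arrays, the 6 largest bounds each way, 10 each way with 2 or more bright probes all at least 2-fold apart, up to 6 members of each list (every member where the list median was at least 2-fold from 0), and Nkx2-1, Sox2, Barx1 and Cdx2; clone names were left out. Some genes under this rule are not reported here. Further list members, the genes at the threshold, and the comparisons of a list with its own exceptions were named after their values were seen. Other scalings, background correction, probe rules and filters were tried, with effects given in the closing section. Python 3.11.15 was used with scipy 1.17.1, pandas 2.3.3 and numpy 2.4.6. Normexp was run in limma 3.58.1 under R 4.3.3. The calls were tested on simulated data with known differences. Every probe of a gene was given the same difference, with noise far below the SD of 0.90 (log2) between probes. The test therefore checks the code and not how often a call is wrong.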

Additional observations from a re-analysis of the deposited data

How the results depend on the processing

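No paired analysis was possible because each organ had 1 array, and the replicate numbers are names only. Against the 1119 genes higher in lung and 823 higher in intestine, the scalings gave 1323 and 714 (each array's median), 951 and 860 (quantile normalization), 751 and 1175 (75th percentile over probes bright on both arrays) and 1700 and 590 (spike-in controls); they moved the median of all genes by 0.09, −0.12, −0.21 and 0.22. Normexp with an offset of 50 on median spot and background signals gave 935 and 2070 and moved that median by −0.57. That offset lies above the lung array's 75th percentile of processed signal, 32.0. Keeping only probes bright on both arrays gave 1152 and 512, no filter on dim probes 5149 and 1293, and only genes with 2 or more agreeing probes 230 and 145. The mean or median of the bright probes, keeping disagreeing genes, signs from every probe's own values, keeping outlier spots, the deposited table and, chosen after seeing the data, leaving out background outliers gave 1039 to 1292 and 782 to 864. Under normexp the difference of Tbx3 (−0.0025), Hoxb2 (−0.26), Hoxb6 (−0.026) and Hba-x (−0.30) reversed; the cause was not tested. Of 52 genes named for size or agreeing probes, 51 were called under all 4 scalings, Grn excepted, and 51 were at least 2-fold apart the same way under normexp. Of all 206 named genes that were called, 187 and 135 were. Dkk3, Nog and Edn3 were called in 1 of the 4 scalings, Hopx, Hoxb2 and Alb in 2, and Meis2, Fgf18, Isl1, Hbb-y, Hba-x and Sox18 in 3. The medians of the hedgehog, FGF response, BMP, Notch, smooth muscle, macrophage and mesothelium lists changed sign over the scalings, and those of the mesenchyme, endothelium, cell cycle and pancreas lists under normexp; no list whose median was at least 2-fold from 0 did. The signal over background of the lung array limits all values under −2.39.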
